A study of Mus musculus with 26 samples.

Results

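Aminoacyl-tRNA synthetase genes were followed across cultured mouse fibroblasts carrying an oncogene or an empty vector. A gene was a member when its symbol in the platform annotation was a single letter of the amino acid code followed by "ars", with or without a final 1 or 2, or was Eprs, Eprs1, Farsa or Farsb. A member also needed a probe set that the annotation ties to 1 gene, and the probe set with the highest mean stood for the gene. This gave 35 of the 18193 genes with such a probe set, and all 35 passed the filter on low signal that left 13018 genes for testing. By the rule, the 16 symbols ending in 2 were taken as mitochondrial enzymes and the other 19 as cytosolic enzymes.

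The material was 26 Affymetrix arrays of immortalized mouse embryonic fibroblasts (MEFs), which are connective tissue cells grown from embryos and kept in permanent culture. There were 3 parental lines, WA, WB and WC, and each was infected with pBabe-puro (the empty vector), pBabe-human c-myc or pBabe-human v-src, as the labels spell them. All cells therefore carried a retroviral vector, and c-myc encodes a transcription factor while v-src encodes an always active tyrosine kinase. Crossing lines with vectors gave 9 groups of 3 arrays, but for the v-src group of WB, of which 2 arrays (replicates 2 and 3) were used and replicate 1 was not analysed here. Per the design text, the arrays served to test an expression signature of anchorage-independent growth taken from breast cancer lines. The labels do not tell whether arrays sharing a group stem from separate cultures. A p-value computed within a line thus reflects only the spread between these arrays, which may be technical. In bulk RNA, fewer cells of a type and less RNA per cell cannot be told apart.

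Aminoacyl-tRNA synthetases join each amino acid to its own transfer RNA (tRNA) and thereby supply the ribosome with its building blocks. Cytosolic enzymes serve the translation of nuclear messages, and a separate nuclear-encoded set is imported into mitochondria, where it serves the few proteins made from the mitochondrial genome. Several cytosolic enzymes sit together in a large multi-synthetase complex held by the scaffold proteins Aimp1, Aimp2 and Eef1e1. Many cytosolic synthetase genes are known targets of ATF4, a transcription factor made when amino acids are short or the endoplasmic reticulum is stressed, and c-Myc is known for driving genes of ribosome and mitochondrial biogenesis.

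Signals are MAS5 intensities as deposited, and every difference given is on the scale of log2(signal + 23), which understates the change of genes with low signal. Array medians lay between 88.93 and 134.6, and the mean correlation of an array with the others of its group was between 0.963 and 0.982, lowest for WC c-myc replicate 1. All 14 fibroblast markers measured passed the filter, with a summed signal of 133200 to 204500 under the empty vector, 110500 to 133700 with c-myc and 112900 to 138100 with v-src. Of these 14 genes, 6 fell with c-myc, against 9.76% of all genes tested. With v-src 6 fell and 1 rose, against 6.79% and 6.64% of all genes. Of the markers of other cells, 4 of 8 for macrophages and blood passed the filter, with a summed signal of 608 to 1492, and 3 of 7 for endothelium, with 319.3 to 662. The epithelial markers passed in 7 of 8 cases, with a sum of 1231 to 3714 under the empty vector, 1481 to 4441 with c-myc and 2198 to 7350 with v-src. Epcam had the highest signal of these, from 97.21 to 5624, and differed by 1.41 with v-src (adjusted p = 0.135, limma), while Cdh1 did not pass the filter at up to 111.3. No marker of another cell type passed the test in either oncogene comparison, and no marker was at 0. The part of these shifts in the results on synthetases was not tested.

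Promoter windows of 5 cytosolic members carried a sequence of the kind read by ATF4 and its C/EBP partners, and these windows are shown because the 5 genes recur in the comparisons. RefSeq promoter sequences (mouse assembly GRCm38.p6, 250 bases before to 50 after the start) were matched for 26 of the 35 members. The motif TGATGNAAN, with N any base, was searched on both strands, as was the E-box CACGTG, a site that c-Myc and other factors can bind. No match to one motif overlapped a match to the other in a member. Capitals mark whole matches to either motif within the stretch from 150 bases before the start to 20 after it. The windows lie at chr8:111033692-111033861 (plus strand) for Aars, chr15:11399639-11399808 (minus strand) for Tars, chr4:129189753-129189922 (plus strand) for Yars, chr6:55037851-55038020 (plus strand) for Gars and chr13:49681980-49682149 (plus strand) for Iars. For contrast, Kars and Yars2 are printed too. Both rose with c-myc and do not stand for every member without a match. Eprs, with no TGATGNAAN match, differed by -0.61 with v-src. Gars (-0.13) and Iars (0.03), which have a match, did not pass the test with c-myc. Kars lies at chr8:112011335-112011504 (minus strand) and Yars2 at chr16:16302815-16302984 (plus strand), and neither holds a match to either motif in this stretch. All are written 5′ to 3′ on the strand of the gene.
Aars: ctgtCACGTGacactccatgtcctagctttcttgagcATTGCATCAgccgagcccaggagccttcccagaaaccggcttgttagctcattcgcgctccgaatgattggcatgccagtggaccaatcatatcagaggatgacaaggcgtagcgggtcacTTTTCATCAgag
Tars: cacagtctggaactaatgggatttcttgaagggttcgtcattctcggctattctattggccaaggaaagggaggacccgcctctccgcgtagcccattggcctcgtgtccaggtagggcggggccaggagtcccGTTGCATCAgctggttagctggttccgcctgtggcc
Yars: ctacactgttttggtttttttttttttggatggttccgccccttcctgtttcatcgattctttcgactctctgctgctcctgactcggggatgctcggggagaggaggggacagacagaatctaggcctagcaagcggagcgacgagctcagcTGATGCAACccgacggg
Gars: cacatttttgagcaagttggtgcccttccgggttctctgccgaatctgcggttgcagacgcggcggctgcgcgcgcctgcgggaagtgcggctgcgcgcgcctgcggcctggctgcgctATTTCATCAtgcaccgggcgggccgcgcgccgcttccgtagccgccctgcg
Iars: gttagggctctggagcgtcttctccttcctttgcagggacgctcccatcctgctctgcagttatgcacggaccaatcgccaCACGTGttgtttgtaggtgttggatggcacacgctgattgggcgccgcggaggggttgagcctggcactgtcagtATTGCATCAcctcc
Kars: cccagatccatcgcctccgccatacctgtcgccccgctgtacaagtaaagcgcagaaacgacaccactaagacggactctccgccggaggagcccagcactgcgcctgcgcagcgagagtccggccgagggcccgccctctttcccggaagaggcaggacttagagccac
Yars2: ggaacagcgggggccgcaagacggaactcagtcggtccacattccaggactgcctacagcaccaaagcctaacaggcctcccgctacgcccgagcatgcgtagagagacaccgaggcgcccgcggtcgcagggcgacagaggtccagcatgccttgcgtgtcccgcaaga

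TGATGNAAN was found in 5 of the 12 cytosolic members with a window (41.7%), in 0 of 14 mitochondrial members, in 11 of 31 other ATF4 target genes (35.5%) and in 4.5% of all 27025 genes with a window. Aars had 2 matches, at 113 to 105 bases before the start and at 9 to 17 after it. The E-box was found in 4 of 12 cytosolic members (Aars, Farsb, Iars and Tars), in 1 of 14 mitochondrial members (Ears2) and in 8.09% of all genes. The Tars E-box lies at bases 20 to 25 after the start, beyond the stretch printed. A match describes these letters only, and 9 members had no window in the table: Cars, Lars, Hars, Nars, Rars, Vars, Wars, Hars2 and Pars2.

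In c-myc cells calls went up among mitochondrial synthetases and both ways among cytosolic ones. Among mitochondrial enzymes, Yars2 and Vars2 rose and none fell, 2 of 16 being near the share of all genes called higher. All 16 differences from the empty vector were above 0 (15 of 16 with arrays centred on their medians). Of all 13018 genes tested, 7107 were above 0. Among cytosolic enzymes, Kars, Vars and Farsa rose and Aars and Tars fell. The fit compared c-myc with the empty vector over n = 3 lines, with the arrays of a group averaged first, and a gene was called at an adjusted p under 0.05 (limma, Benjamini-Hochberg over all 13018 genes). So called, 5 of 19 cytosolic and 2 of 16 mitochondrial members changed, against 19.8% of all genes tested. Of all genes, 10.0% were called higher and 9.76% lower, 1306 and 1270 genes in number. With each array centred on its median, these became 836 higher and 1394 lower, or 37.5% higher in place of 50.7%. Without line WA, WB or WC the cytosolic calls became 0, 2 and 1, and the mitochondrial calls 1, 1 and 0.

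The median difference was 0.33 over the 16 mitochondrial members, -0.01 over the 19 cytosolic members and 0.04 over all genes tested. By line, the mitochondrial median was 0.46 (WA), 0.21 (WB) and 0.39 (WC), and the cytosolic median was -0.11, -0.28 and 0.24. Differences of mitochondrial members ranged from 0.03 to 0.93. With arrays centred on their medians, 15 of the 16 stayed above 0 and the lowest was -0.02. In all 3 lines, 11 of 16 mitochondrial and 6 of 19 cytosolic members were higher with c-myc, against 30.9% of all genes. Conversely, 0 mitochondrial and 5 cytosolic members were lower in all 3 lines, against 25.3%. A stricter count asked that every c-myc array lie above every empty vector array of its own line: 2 mitochondrial and 4 cytosolic members met it (9.03% of all genes), and 0 members met the reverse (9.33%).

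**Figure D1:**
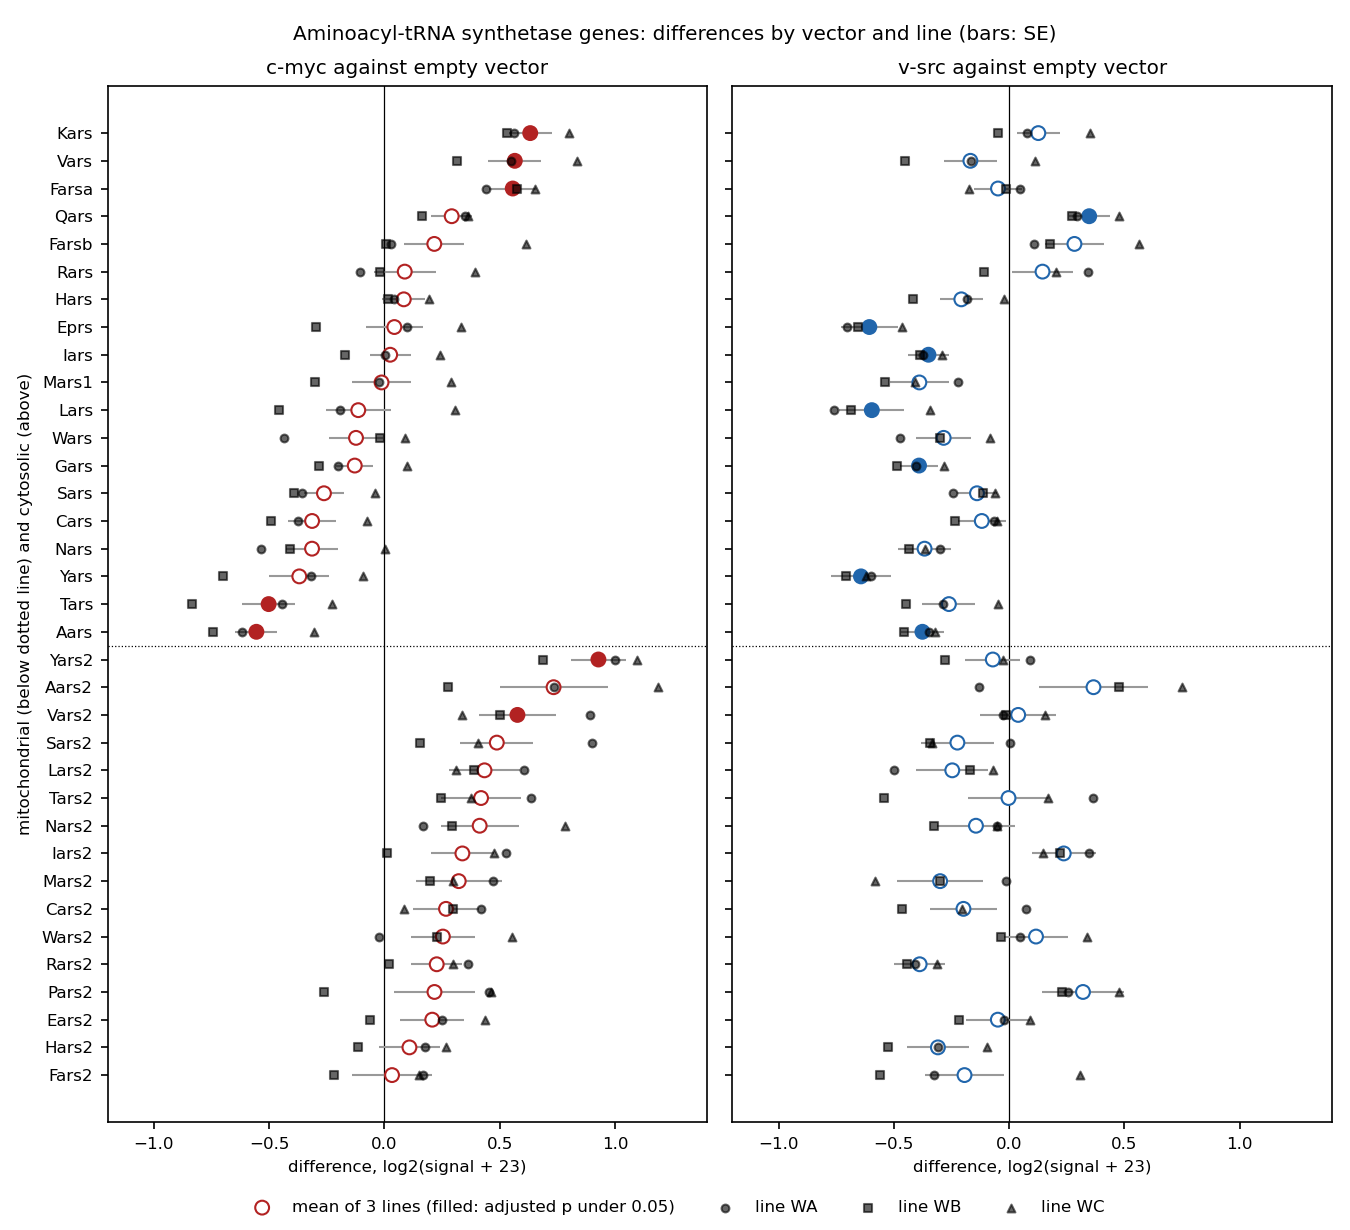
Differences from the empty vector, on the log2(signal + 23) scale, for the 19 cytosolic members (above the dotted line) and the 16 mitochondrial members (below it), with c-myc on the left and v-src on the right. Large circles are means of 3 lines with SE bars, filled where the adjusted p was under 0.05, and small symbols are the lines. All 16 mitochondrial circles lie right of 0 with c-myc (15 of 16 if arrays are centred on their medians), while 15 of 19 cytosolic circles lie left of 0 with v-src. Of all 13018 genes tested, 7107 were above 0 with c-myc and 6198 below 0 with v-src.

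Yars2, which charges mitochondrial tRNA with tyrosine (probe set 1430134_a_at), had the largest difference of the 35 members. With the empty vector, Yars2 gave signals of 638, 566 and 566 in WA, 971, 1033 and 986 in WB and 391, 587 and 544 in WC. With c-myc the signals of Yars2 were 1231, 1281 and 1100.2 in WA, 1726, 1622 and 1519 in WB and 982, 1049.9 and 1270.2 in WC. With v-src they were 639, 611 and 637 in WA, 756 and 884 in WB and 440.5, 559.6 and 479 in WC. Every c-myc array of Yars2 lay above every empty vector array of its own line. Those groups overlapped only across lines, where WB is high with each vector. All c-myc arrays of Yars2 lay above all v-src arrays, whatever the line. The c-myc difference was 0.93 (SE 0.12), or 1.9-fold, with 1.00 (WA), 0.69 (WB) and 1.10 (WC) (adjusted p = 0.00427, limma). Its second probe set gave 0.80 for the same comparison.

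Vars2, the mitochondrial valyl enzyme (probe set 1434349_at), had low signals throughout. The empty vector arrays of Vars2 read 203, 178 and 130.0 in WA, 194, 153 and 241 in WB and 153, 149 and 208 in WC. Its c-myc arrays read 304, 302 and 395 in WA, 235, 307 and 314 in WB and 194, 217 and 249 in WC. Its v-src arrays read 170.5, 158 and 164 in WA, 201 and 182 in WB and 196, 158 and 221 in WC. In WA the c-myc arrays stood clear of the empty vector arrays, while in WB and WC the groups overlapped. Its difference was 0.58 (SE 0.17), with 0.89 (WA), 0.50 (WB) and 0.34 (WC) (adjusted p = 0.0458, limma), and the second probe set gave 0.66. This call ended, at an adjusted p of 0.0521 to 0.0676, when any 1 of 9 arrays was left out: empty vector WA 3, WB 2, WC 1 or WC 2, c-myc WB 2, WB 3 or WC 3, or v-src WB 3 or WC 2. It also ended with quantile normalization (0.051) and with arrays centred on their medians (0.0765) or with no filter on low signal (0.0798).

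Kars makes both the cytosolic and the mitochondrial lysyl enzyme from a shared gene and belongs to the multi-synthetase complex (probe set 1416068_at). Kars signals were 2847, 2761 and 2809 in WA, 3098, 3314 and 3369.9 in WB and 2603, 2881 and 2983 in WC with the empty vector. For c-myc the Kars arrays gave 4201, 3997 and 4279 in WA, 4657, 4884 and 4632 in WB and 4808, 4843 and 5143 in WC. For v-src the Kars arrays gave 3027, 2976 and 2888 in WA, 3124 and 3173 in WB and 3608, 3773 and 3424 in WC. All 9 c-myc arrays lay above all empty vector and v-src arrays, whatever the line. The Kars difference with c-myc was 0.63 (SE 0.09), or 1.55-fold, with 0.56 (WA), 0.53 (WB) and 0.80 (WC) (adjusted p = 0.00567, limma).

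Vars, the cytosolic valyl enzyme (probe set 1448472_at), rose by a like amount. With the empty vector, Vars gave signals of 3007, 3258 and 2879 in WA, 3305, 3827 and 3481 in WB and 1492, 2688 and 2874 in WC. With c-myc the signals of Vars were 4245, 4975 and 4203 in WA, 4269, 5015 and 3975 in WB and 4281, 3689 and 4199 in WC. With v-src they were 2838, 2516 and 2802 in WA, 2258 and 2934 in WB and 2829, 2370.3 and 2179 in WC. Within each line all c-myc arrays were above all empty vector arrays, and the empty vector array WC 1 was the lowest of the 26. The difference was 0.57 (SE 0.12), with 0.55 (WA), 0.32 (WB) and 0.83 (WC) (adjusted p = 0.015, limma). Farsa is the catalytic subunit of the cytosolic phenylalanyl enzyme (probe set 1424907_a_at), and its signals were 1243 to 2115 (median 1791) under the empty vector, 2136 to 3369.7 (median 2481) with c-myc and 1298 to 2064 (median 1684) with v-src. The c-myc arrays of Farsa did not overlap the empty vector arrays at all. Farsa rose by 0.56 (SE 0.10), with 0.44 (WA), 0.58 (WB) and 0.65 (WC) (adjusted p = 0.0105, limma). Its partner subunit Farsb did not pass the test, at 0.22.

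Aars, the alanyl enzyme (probe set 1451083_s_at, whose suffix marks probes shared with other transcripts), fell with c-myc. Its signals were 5932 to 9260.3 (median 7683) under the empty vector, 4759 to 6111 (median 5100.0) with c-myc and 5195 to 6165 (median 5987) with v-src. In WA and WB every c-myc array was below every empty vector array, while in WC the ranges overlapped. The difference was -0.56 (SE 0.09), or 1.47-fold lower, with -0.62 (WA), -0.75 (WB) and -0.30 (WC) (adjusted p = 0.00781, limma), and the second probe set gave -0.55. Tars, the threonyl enzyme (probe set 1460323_at), had signals of 3043 to 5249.9 (median 4189.8) under the empty vector, 2644 to 3307 (median 3024) with c-myc and 3158 to 3801 (median 3563) with v-src. As with Aars, the groups were separate in WA and WB and overlapped in WC. Tars differed by -0.50 (SE 0.12), with -0.45 (WA), -0.83 (WB) and -0.23 (WC) (adjusted p = 0.0219, limma). Both genes carry a TGATGNAAN match and also an E-box.

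**Figure D2:**
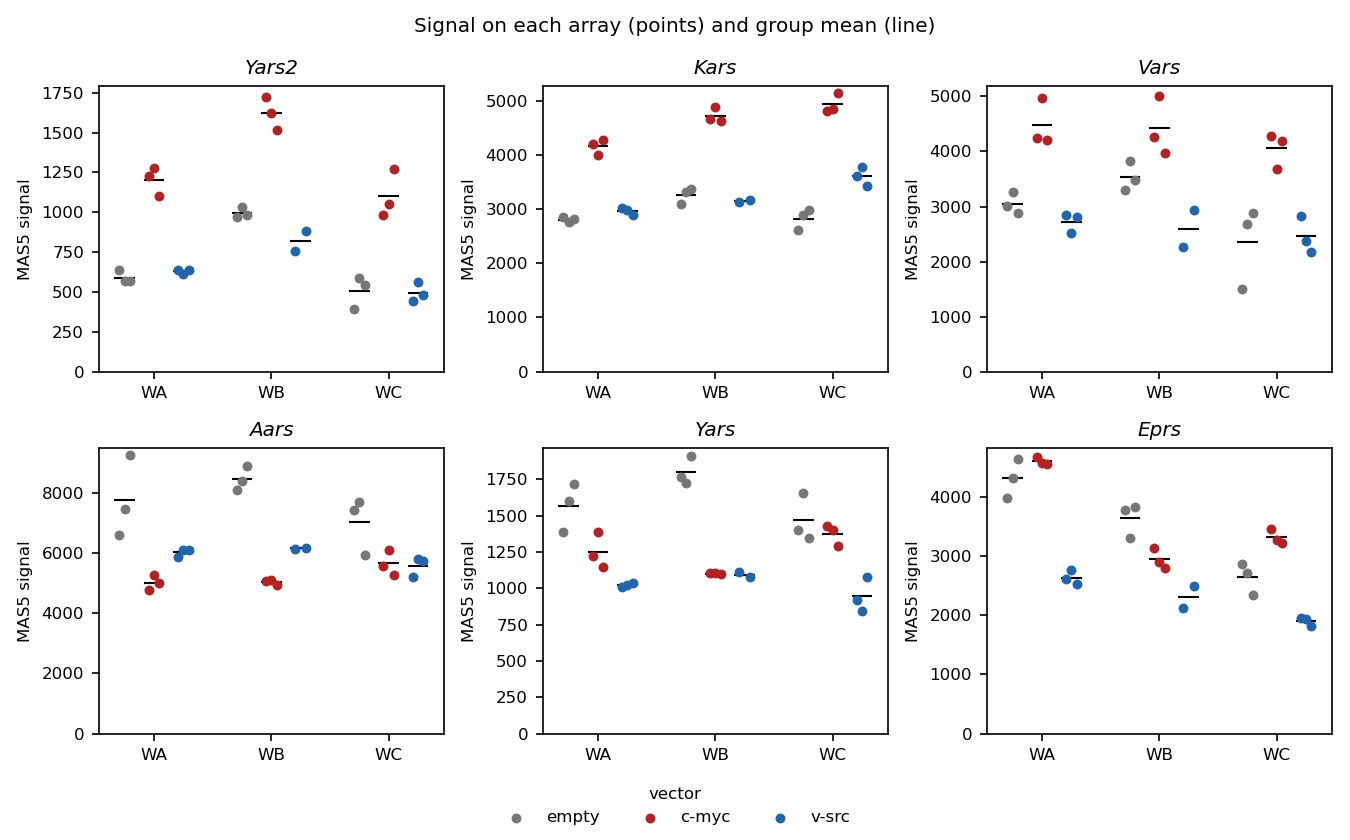
MAS5 signal on each of the 26 arrays (points) and group means (lines) for 6 members, by line on the horizontal axis and by vector in colour. Each vertical axis starts at 0 and has its own range. Yars2, Kars and Vars are high in the c-myc groups of all 3 lines, Aars is highest with the empty vector, and Yars and Eprs are lowest in the v-src groups, with Yars in WB at 1100.2 with c-myc and 1094 with v-src on average.

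For 13 amino acids both a cytosolic and a mitochondrial enzyme were measured, and with c-myc the mitochondrial difference was above the cytosolic one in all 13 pairs. It was above it in each of the 3 lines in 10 pairs. The median gap was 0.55 on the log2 scale, and gaps ranged from 0.01 for Vars and Vars2 to 1.30 for Yars and Yars2. The Yars and Yars2 gap was 1.32 (WA), 1.39 (WB) and 1.19 (WC). Aars and Aars2 came next at 1.29 (1.35, 1.02 and 1.49 by line), and Tars and Tars2 had 0.92. The exceptions to a gap in every line were Hars and Hars2, Rars and Rars2, and Vars and Vars2, each above in 2 lines.

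**Figure D3:**
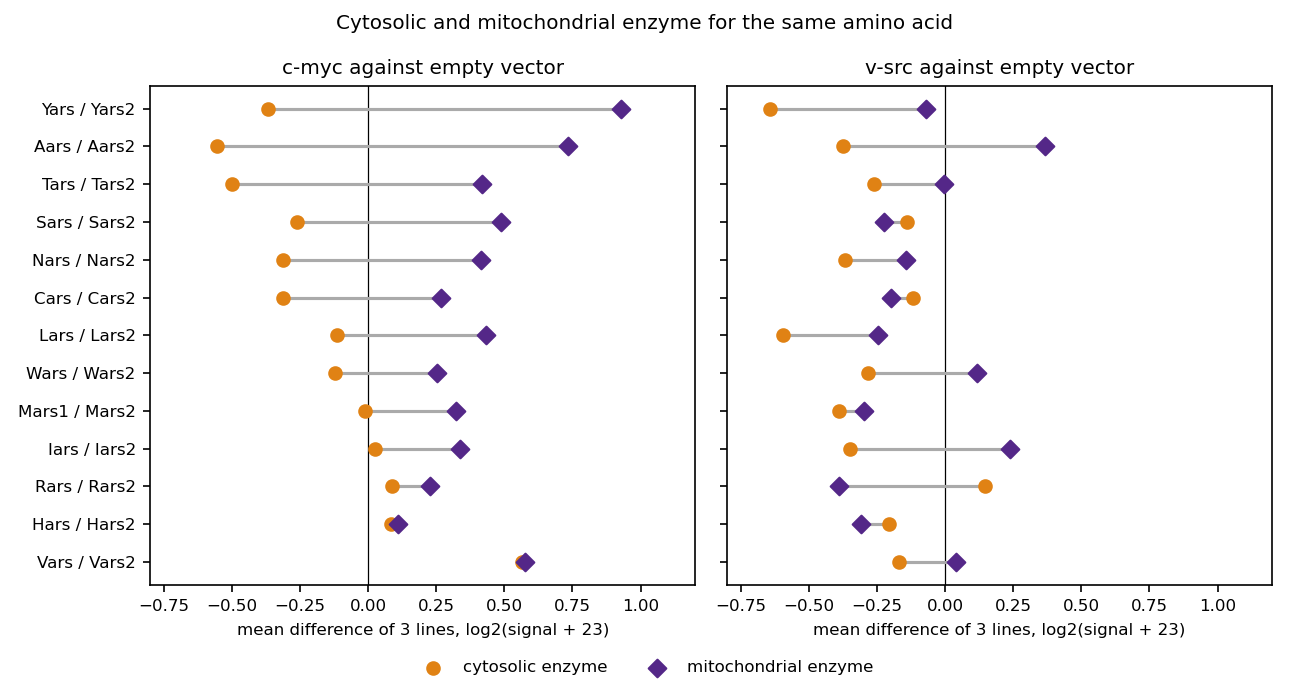
Difference from the empty vector of the cytosolic enzyme (orange circle) and the mitochondrial enzyme (purple diamond) for the same amino acid, as the mean of 3 lines on the log2(signal + 23) scale, in 13 pairs. With c-myc (left) the diamond lies right of the circle in all 13 pairs, and with v-src (right) in 9 of 13.

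Other mitochondrial members were above the empty vector with c-myc but did not pass the test. With Yars2 and Vars2 included, 8 of 16 had an unadjusted p under 0.05. The share of all genes at an unadjusted cut is not given here for any comparison. Unadjusted counts of members and lists thus cannot be set against it, nor against the shares called by adjusted p. Aars2, the alanyl enzyme (1436017_at), ranged from 51.4 to 399.7 and had the second largest difference, 0.73 (SE 0.23), with an adjusted p of 0.0634. Aars2 passed, at 0.0273 to 0.0491, when empty vector WA 3, WB 2 or WB 3 or c-myc WB 1 was left out. Sars2 (1448522_at), for serine, differed by 0.49 (SE 0.16). Lars2 (1435682_at), for leucine, differed by 0.43 (SE 0.16). These 3 enzymes were higher with c-myc in each line. Tars2 (1431125_a_at, 423 to 945), for threonine, differed by 0.42. Nars2 (1433839_at, 105 to 333), for asparagine, differed by 0.41, and Iars2 (1426735_at, 471 to 912), for isoleucine, by 0.34. Mars2 (1436777_at, 22.9 to 156), for methionine, differed by 0.32, and Cars2 (1454186_a_at, 220.3 to 541), for cysteine, by 0.27. Those 5 were also higher in every line, the smallest line difference being 0.01 for Iars2 in WB. Wars2 (1435273_at, 338 to 710.4), for tryptophan, differed by 0.25. Rars2 (1424209_at, 532 to 1203), for arginine, differed by 0.23, and Pars2 (1427309_at, 184 to 392), for proline, by 0.22. Ears2 (1451471_at, 142 to 354), for glutamate, differed by 0.21, Hars2 (1419158_a_at, 181 to 440.1), for histidine, by 0.11 and Fars2 (1431354_a_at, 514 to 971), for phenylalanine, by 0.03. Of these last 6, Rars2 was the exception that stood higher in all 3 lines, while each of the others was lower in 1 line.

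In v-src cells most calls among cytosolic synthetases went down. Yars, Eprs, Lars, Gars, Aars and Iars fell, and Qars was the sole member that rose. No mitochondrial member was called by limma over the lines, while 2 of the 16 had an unadjusted p under 0.05, both lower, and the other settings called between 0 and 4. Over n = 3 lines, 7 of 19 cytosolic members were called, against 13.4% of all genes tested. In direction these were 6 lower, against 6.79% of all genes, and 1 higher, against 6.64%. Of all genes, 865 were higher and 884 lower, or 49.5% higher, and with arrays centred on their medians 640 were higher and 1158 lower, or 35.6% higher. Without line WA, WB or WC, the cytosolic calls became 0, 0 and 2.

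The cytosolic median was -0.26, the mitochondrial median -0.11 and that of all genes 0.02. Below 0 were 15 of 19 cytosolic members, as also with centred arrays and with quantile normalization. Of all 13018 genes tested, 6198 were below 0 in the main fit. By line, the cytosolic median was -0.24 (WA), -0.42 (WB) and -0.08 (WC). The mitochondrial median was -0.02, -0.29 and 0.03 in the same lines. Lower than the empty vector in all 3 lines were 13 of 19 cytosolic and 5 of 16 mitochondrial members, against 26% of all genes. Higher in all 3 lines were 2 cytosolic and 2 mitochondrial members, against 27.2%. In 8 cytosolic members and 1 mitochondrial member every v-src array lay below every empty vector array of its own line, which 9.07% of all genes did. The reverse held for 1 cytosolic member, Qars, and for 7.47% of all genes.

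Yars, the cytosolic tyrosyl enzyme (probe set 1460638_at), had the largest difference. The empty vector arrays of Yars read 1383, 1598 and 1713 in WA, 1766, 1727 and 1910.3 in WB and 1399, 1657 and 1347 in WC. Its c-myc arrays read 1223, 1387 and 1144 in WA, 1103, 1101 and 1096 in WB and 1428, 1398 and 1289 in WC. Its v-src arrays read 1005, 1022 and 1037 in WA, 1112 and 1076 in WB and 916, 842 and 1080.3 in WC. All v-src arrays were below all 9 empty vector arrays, while they overlapped the c-myc arrays in WB. The v-src difference was -0.64 (SE 0.13), or 1.56-fold lower, with -0.60 (WA), -0.71 (WB) and -0.62 (WC) (adjusted p = 0.0184, limma). With c-myc it was -0.37 and did not pass the test (adjusted p = 0.0853).

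Eprs carries the glutamyl and prolyl activities on a single chain and is part of the multi-synthetase complex (probe set 1452157_at). Eprs signals were 3981, 4315 and 4645 in WA, 3776, 3298 and 3829.8 in WB and 2872, 2711 and 2338 in WC with the empty vector. For c-myc the Eprs arrays gave 4681, 4578 and 4561 in WA, 3143, 2906 and 2800.1 in WB and 3454, 3269.6 and 3223 in WC. For v-src the Eprs arrays gave 2608, 2769.6 and 2534 in WA, 2119 and 2490.2 in WB and 1956, 1929 and 1825 in WC. Within each line the v-src arrays were below all others, and WA was the highest line with each vector. The difference was -0.61 (SE 0.12), with -0.70 (WA), -0.65 (WB) and -0.46 (WC) (adjusted p = 0.0194, limma). Its 3 other probe sets gave -0.71, -0.26 and -0.25, of which the middle one did not pass the filter on low signal.

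Lars, the cytosolic leucyl enzyme and also a complex member (probe set 1448403_at), was lower with v-src in every line. With the empty vector, Lars gave signals of 3007, 3276 and 3963 in WA, 2639, 2352 and 2633 in WB and 2319, 2769.7 and 2635 in WC. With c-myc the signals of Lars were 3071, 2941 and 2898 in WA, 1704, 1940.4 and 1894 in WB and 2841, 3543 and 3203 in WC. With v-src they were 2040.0, 2014 and 1924 in WA, 1485 and 1659.9 in WB and 2028, 2076 and 1962 in WC. All v-src arrays were below all empty vector arrays, while in WC the c-myc arrays were the highest of that line. Lars differed by -0.60 (SE 0.14), with -0.76 (WA), -0.68 (WB) and -0.34 (WC) (adjusted p = 0.0315, limma). The call ended with no intensity trend (0.0553), and, at 0.0513, without the array least like its group (WC c-myc 1) and the array with the lowest median signal (WA empty 3).

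Gars makes the glycyl enzyme of both cytosol and mitochondria (probe set 1423784_at). The empty vector arrays of Gars read 8654, 8847 and 9874 in WA, 8489, 9362 and 9784 in WB and 8419, 7543 and 6687 in WC. Its c-myc arrays read 7120.4, 8134 and 8596 in WA, 7446, 7808 and 7425 in WB and 8387, 7911 and 7836 in WC. Its v-src arrays read 6686, 6710.1 and 7269 in WA, 6321 and 6798 in WB and 6149.5, 6286 and 6085 in WC. In each line the v-src arrays were below the empty vector arrays. Gars differed by -0.39 (SE 0.08), with -0.40 (WA), -0.49 (WB) and -0.28 (WC) (adjusted p = 0.0203, limma), and the call ended with quantile normalization (0.0634) and with no intensity trend (0.0667).

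Aars, described above for c-myc, fell with v-src by less. In each line all v-src arrays lay below all empty vector arrays. Its difference was -0.38 (SE 0.09), with -0.35 (WA), -0.46 (WB) and -0.32 (WC) (adjusted p = 0.034, limma). The call ended when empty vector WA 3 or WC 2 was left out (0.0559 to 0.0564), with quantile normalization (0.0858), with no intensity trend (0.0868) and without WC c-myc 1 and WA empty 3 together (0.0672). Iars is the isoleucyl enzyme of the complex (probe set 1452154_at), and its signals were 4807 to 7124 (median 5766) under the empty vector, 4833 to 6364 (median 5987) with c-myc and 3997 to 4852 (median 4500.4) with v-src. Its v-src arrays were below the empty vector arrays in every line. Iars differed by -0.35 (SE 0.09), with -0.37 (WA), -0.39 (WB) and -0.29 (WC) (adjusted p = 0.0381, limma). That call ended without empty vector WA 3, empty vector WC 2 or c-myc WC 1 (0.0501 to 0.0533), with quantile normalization (0.0634), with no filter (0.053), with no intensity trend (0.0935) and without that pair of arrays (0.0719).

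Qars, the glutaminyl enzyme and a further complex member (probe set 1423712_a_at), went the other way. Its signals were 1659.9 to 2382 (median 1958) under the empty vector, 2103 to 2863 (median 2284) with c-myc and 2379 to 2735 (median 2529) with v-src. In each line the v-src and the c-myc arrays were all above the empty vector arrays. The v-src difference was 0.35 (SE 0.09), with 0.29 (WA), 0.27 (WB) and 0.48 (WC) (adjusted p = 0.0399, limma). With c-myc it was 0.29 and the adjusted p was 0.0543. Leaving out empty vector WA 2 ended the v-src call (0.0548), as did centring of arrays (0.122), the mean of its probe sets (0.0537) and a fit with no intensity trend (0.0744). Leaving out empty vector WA 3, c-myc WB 3 or c-myc WC 2 brought the c-myc value under the threshold (0.0449 to 0.0493).

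By role, the 7 complex members (Eprs, Iars, Kars, Lars, Mars1, Qars and Rars) had a v-src median of -0.35, with 3 called lower and 1 higher (6.79% and 6.64% of all genes), and a c-myc median of 0.04, with 1 called higher (10.0%). The 12 cytosolic members outside the complex had medians of -0.23 with v-src and -0.20 with c-myc. Synthetases fall into classes I and II by the fold of their catalytic domain. The 9 class I members had medians of -0.01 with c-myc and -0.28 with v-src, and the 9 class II members -0.13 and -0.21, with Eprs holding a domain of each class and left out of both. By promoter, the 5 members with a TGATGNAAN match had medians of -0.37 with c-myc (range -0.56 to 0.03) and -0.38 with v-src (range -0.64 to -0.26), and 4 of the 5 fell with v-src (6.79% of all genes). The 7 cytosolic members whose window held no match had medians of 0.22 with c-myc (range -0.26 to 0.63) and -0.05 with v-src (range -0.61 to 0.35). The 7 without a window had -0.11 and -0.21. An E-box was held by Aars, Iars and Tars beside the TGATGNAAN match and by Farsb without it. Their c-myc differences were -0.56, 0.03, -0.50 and 0.22. These are descriptions of small groups, with no test between them.

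Other members did not pass the test with v-src. Among cytosolic enzymes, Tars differed by -0.26, Nars by -0.37, Mars1 by -0.39, Wars by -0.28, Hars by -0.21, Vars by -0.17, Sars by -0.14, Cars by -0.12 and Farsa by -0.05. In Mars1 and Nars, as in the 6 called genes, all v-src arrays were below all empty vector arrays of each line. Above the empty vector were Farsb (0.28), Rars (0.14) and Kars (0.13). The lower ones thus cover the asparaginyl, methionyl, tryptophanyl, histidyl, seryl and cysteinyl enzymes too. Among mitochondrial enzymes the largest differences were -0.39 for Rars2 (adjusted p = 0.0554, limma) and 0.37 for Aars2 (adjusted p = 0.335, limma). Rars2 passed, at 0.0461 to 0.0493, when empty vector WA 1 or v-src WC 2 was left out. Below 0 were also Hars2 (-0.31), Mars2 (-0.30), Lars2 (-0.25), Sars2 (-0.22), Cars2 (-0.20), Fars2 (-0.19), Nars2 (-0.14), Yars2 (-0.07), Ears2 (-0.05) and Tars2 (-0.003). Above 0 were Pars2 (0.32), Iars2 (0.24), Wars2 (0.12) and Vars2 (0.04). In the 13 amino acid pairs, the mitochondrial difference was above the cytosolic one in 9 pairs, and in all 3 lines in 7. It was below in all 3 lines in 2 pairs, Rars with Rars2 and Hars with Hars2.

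Between the oncogenes, all calls over the lines were lower in v-src cells, in both compartments. Called lower were 7 of 19 cytosolic and 8 of 16 mitochondrial members, and none was called higher. Without line WA or WC the cytosolic calls became 2, and without WA, WB or WC the mitochondrial calls became 1, 3 and 1. Of all genes tested, 25.5% were called, 13.7% lower and 11.9% higher. No member with a higher value had an unadjusted p under 0.05 either. The medians were -0.26 for cytosolic and -0.44 for mitochondrial members, against -0.02 for all genes. Both oncogene comparisons with the empty vector share the empty vector arrays, and the difference between the oncogenes follows from those 2 comparisons. In all 3 lines, 11 of 19 cytosolic and 11 of 16 mitochondrial members were lower in v-src cells, against 29.1% of all genes. The reverse held for 2 cytosolic and 0 mitochondrial members, against 24.9%. Every v-src array lay below every c-myc array of its line in 7 cytosolic and 5 mitochondrial members, against 13%, and 0 members met the reverse (10.3%).

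Yars2 again had the largest difference, -1.0 (SE 0.12), with -0.91 (WA), -0.97 (WB) and -1.12 (WC) (adjusted p = 0.00161, limma). Vars followed at -0.73 (SE 0.12), with -0.71 (WA), -0.77 (WB) and -0.72 (WC) (adjusted p = 0.00443, limma). The arrays of both genes are given above and do not overlap between v-src and c-myc within a line. None of the 40 other settings ended these 2 calls. Sars2, the mitochondrial seryl enzyme, came next. Sars2 signals were 466, 216 and 152 in WA, 305, 298 and 311 in WB and 359, 421 and 321 in WC with the empty vector. For c-myc the Sars2 arrays gave 423, 520.1 and 530.3 in WA, 378, 331 and 319 in WB and 415, 513 and 555 in WC. For v-src the Sars2 arrays gave 189.6, 209 and 395 in WA, 264 and 210.2 in WB and 294, 255 and 306 in WC. In each line the v-src arrays of Sars2 were below the c-myc arrays, and the empty vector arrays of WA spread most. Its difference was -0.71 (SE 0.16) (adjusted p = 0.0146, limma). After it came Lars2, for leucine. With the empty vector, Lars2 gave signals of 259.9, 359 and 275 in WA, 259, 399.6 and 365 in WB and 280.2, 341 and 360.0 in WC. With c-myc the signals of Lars2 were 486, 549.9 and 366 in WA, 417, 578 and 369 in WB and 347, 522 and 375 in WC. With v-src they were 192, 216 and 198 in WA, 268 and 326 in WB and 242, 356 and 340.4 in WC. In WC the v-src and c-myc arrays overlapped, and in WA and WB they did not. Lars2 differed by -0.68 (SE 0.16) (adjusted p = 0.0168, limma).

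Among the other calls, Eprs fell by 0.65, Rars2 by 0.62, Farsa by 0.61, Kars by 0.51 and Iars by 0.38 on the log2 scale. The remaining called members lay near the threshold. Lars differed by -0.48, and its call ended without c-myc WB 2 or v-src WB 2 (adjusted p 0.0504 to 0.0544, limma). Mars2 differed by -0.62 and lost its call, at 0.0507 to 0.0907, when any 1 of 12 arrays was left out: empty vector WA 1, WB 3 or WC 2, c-myc WA 1, WA 2, WB 1, WB 2, WC 1 or WC 3, or v-src WA 3, WB 2 or WC 2. Nars2 differed by -0.56 and lost its call, at 0.0504 to 0.083, without any 1 of 10: empty vector WA 1, WB 3 or WC 2, c-myc WA 1, WA 3, WB 2 or WC 1, or v-src WA 3, WB 2 or WC 1. Vars2 differed by -0.54 and lost its call, at 0.0501 to 0.0768, without any 1 of 14: empty vector WA 1, WA 2, WB 2, WC 2 or WC 3, c-myc WA 1, WA 2, WB 2, WB 3 or WC 3, or v-src WA 2, WA 3, WB 3 or WC 2. Cars2 differed by -0.47 and lost its call, at 0.0501 to 0.102, without any 1 of 17: empty vector WA 2, WA 3, WB 1, WB 3, WC 2 or WC 3, c-myc WA 2, WA 3, WB 1, WB 3, WC 1 or WC 3, or v-src WA 2, WB 2, WB 3, WC 1 or WC 3. Gars differed by -0.26 and lost its call, at 0.051 to 0.072, without any 1 of 14: empty vector WA 1, WA 2, WB 1, WC 1 or WC 2, c-myc WA 2, WA 3, WB 2 or WC 1, or v-src WA 1, WA 2, WB 2, WC 1 or WC 3.

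Other settings ended some of these calls too. Gars, which has 1 probe set, lost it in 6, at 0.0507 to 0.187 (quantile normalization), and Cars2 in 6, at 0.0501 (centred arrays) to 0.11 (mean of its probe sets). Centring ended the calls of Lars (0.0544) and Vars2 (0.0528), and leaving out the filter on low signal those of Lars (0.0502), Nars2 (0.0796) and Vars2 (0.0831). With no intensity trend Iars (0.055) and Lars (0.0679) lost theirs. Mars2 lost its call with a pseudocount of 1 (0.0522), with groups as a random block (0.0614) and without WC c-myc 1 and WA empty 3 (0.0539). The adjusted p of Farsa was 0.143 with the mean of its probe sets (limma).

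Of the members not called here, Hars stood at -0.29 (adjusted p = 0.0563, limma) and Hars2 at -0.42 (0.0533). Hars passed without empty vector WC 1, c-myc WA 3 or c-myc WC 1 (0.043 to 0.0483). Hars2 passed without c-myc WB 2 or WC 3 or without v-src WA 3, WB 2, WC 1 or WC 2 (0.0314 to 0.0494). The highest values were 0.24 for Tars, 0.19 for Cars and 0.18 for Aars, none of which passed over the lines. In fits on single arrays they did pass as higher: Tars and Cars with groups as a random block (0.0257 and 0.0483), and Tars, Cars and Aars with the replicate block (0.0181, 0.0253 and 0.048) and with all arrays as separate values (0.00591, 0.00948 and 0.0358). In the amino acid pairs, the mitochondrial value was below the cytosolic one in all 3 lines in 8 of 13 pairs, and above it on average in 3.

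The c-myc effect differed between the 3 lines in some members, and how many depended on the scaling of arrays. Within lines, on all 26 arrays, c-myc raised 4 and lowered 7 cytosolic members in WA, raised 2 and lowered 10 in WB, and raised 10 and lowered 2 in WC. Mitochondrial members called were 9 (WA), 1 (WB) and 8 (WC) higher, and none lower. Of all genes, 37.6% were called in WA (19% higher, 18.5% lower), 27% in WB (12.5% and 14.5%) and 37.2% in WC (18.6% and 18.6%). With arrays centred on their medians, the WC cytosolic counts became 6 higher and 0 lower, and those of WA 1 and 7. An F test of whether the c-myc effect differs between lines called 12 members, 11 cytosolic and 1 mitochondrial, against 16.2% of all genes. After centring it called 3 cytosolic members and 1 mitochondrial member, and with quantile normalization 13 and 2.

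**Figure D4:**
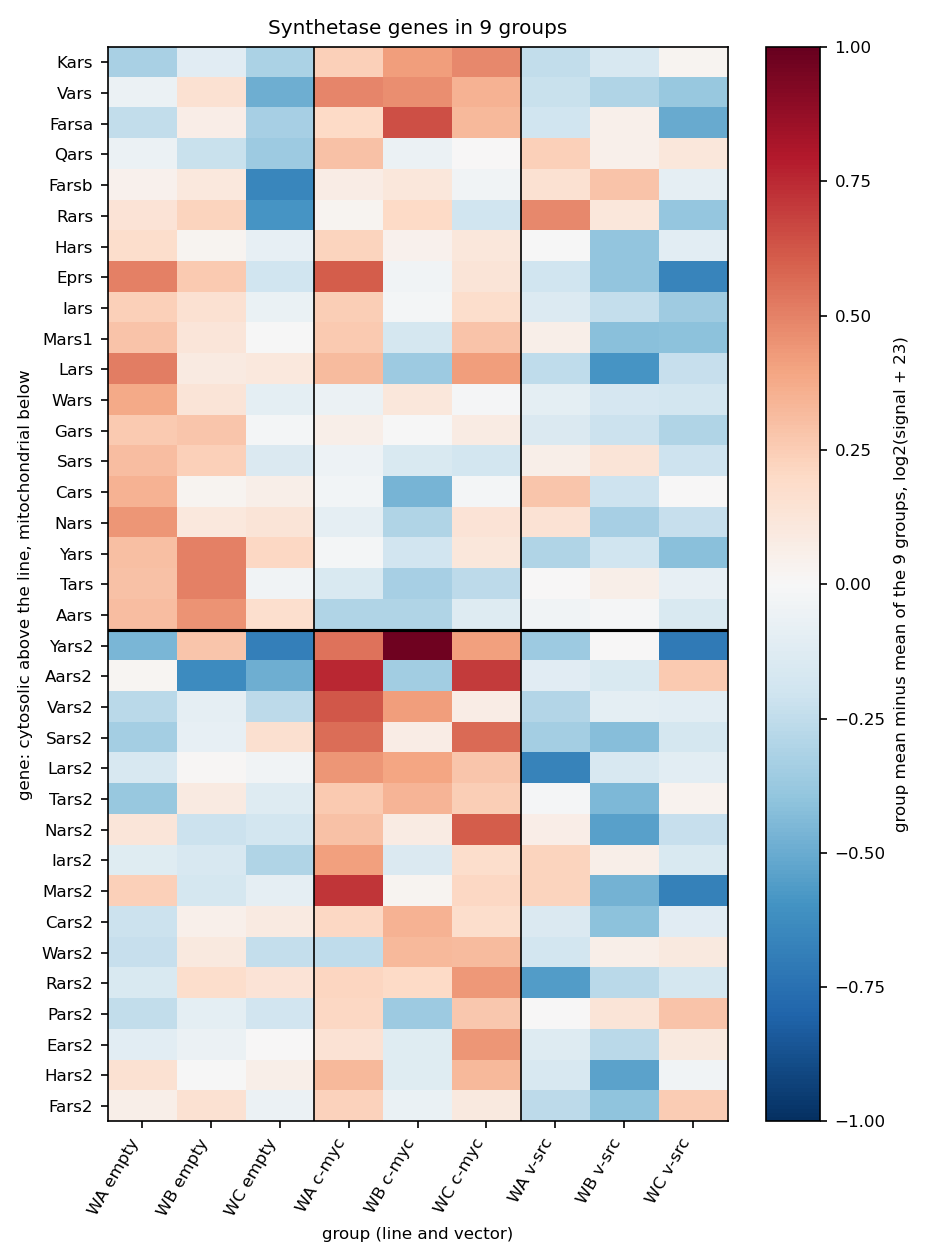
Group means of the 35 members in the 9 groups of line and vector, as log2(signal + 23) minus the mean of the 9 groups, with red above and blue below that mean. Mitochondrial members (below the heavy line) are mostly red in the c-myc columns, and cytosolic members are mostly red in the empty vector columns of WA and WB and mostly paler or blue in that of WC.

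The members with the lowest p in this F test were Mars1, Lars and Farsb. Mars1, the methionyl enzyme of the complex (1455951_at), had signals of 2413 to 3330.3 (median 2772) under the empty vector, 2199 to 3205 (median 3032) with c-myc and 1706 to 2682 (median 2015) with v-src. Its c-myc differences were -0.02 (WA), -0.30 (WB) and 0.29 (WC) (F test adjusted p = 0.000375, limma). Lars had c-myc differences of -0.19 (WA), -0.46 (WB) and 0.31 (WC) (F test adjusted p = 0.000889). In both genes c-myc arrays lay below the empty vector arrays in WB, and above them in WC. Farsb (1435103_x_at, a probe set marked as matching other transcripts too) had signals of 1366 to 2699 (median 2261) under the empty vector, 2163 to 2587 (median 2319) with c-myc and 2057 to 2867 (median 2439) with v-src. Its c-myc differences were 0.03 (WA), 0.01 (WB) and 0.61 (WC) (adjusted p = 0.00148), so that WC stood alone.

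Rars, the arginyl enzyme of the complex (1416312_at), had signals of 2768 to 5249 (median 4491) under the empty vector, 3620.5 to 4924 (median 4289) with c-myc and 2939 to 5925 (median 4558) with v-src. Its c-myc differences were -0.11 (WA), -0.02 (WB) and 0.39 (WC) (adjusted p = 0.00161, limma). Its empty vector mean was 4666 ± 518 (SD, n = 3) in WA, 4926 ± 189 (SD, n = 3) in WB and 2796 ± 48.7 (SD, n = 3) in WC. WC thus had the lowest empty vector level. The same WC empty vector arrays enter its c-myc difference, so level and difference are not independent. Eprs had c-myc differences of 0.10 (WA), -0.30 (WB) and 0.33 (WC) (adjusted p = 0.00172), and Iars 0.00 (WA), -0.17 (WB) and 0.24 (WC) (0.025). For both, WB was lower and WC higher. Tars had -0.45 (WA), -0.83 (WB) and -0.23 (WC) (0.0021), and Yars had -0.32 (WA), -0.70 (WB) and -0.09 (WC) (0.00978). Here all lines were lower, WB most and WC least.

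Nars, the asparaginyl enzyme (1428666_at), had signals of 7299 to 11892 (median 8180.4) under the empty vector, 5366 to 8051 (median 6716) with c-myc and 5609.7 to 8148 (median 6264) with v-src. Its c-myc differences were -0.53 (WA), -0.41 (WB) and 0.00 (WC) (adjusted p = 0.0123, limma). Cars, the cysteinyl enzyme (1452394_at), had signals of 1731 to 2743 (median 1939) under the empty vector, 1260.3 to 1886 (median 1742) with c-myc and 1534 to 2293 (median 1869.6) with v-src. It differed by -0.37 (WA), -0.49 (WB) and -0.08 (WC) (0.0339). In both genes the c-myc arrays were below the empty vector arrays in WA and WB and overlapped them in WC. Gars differed by -0.20 (WA), -0.28 (WB) and 0.10 (WC) (0.0498). The mitochondrial exception, Iars2, had signals of 471 to 592 (median 564) under the empty vector, 524 to 912 (median 738) with c-myc and 533 to 782 (median 651) with v-src and differences of 0.53 (WA), 0.01 (WB) and 0.47 (WC) (0.0202). There WB was the line without a difference.

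For v-src, within-line calls among cytosolic members were 2 higher and 10 lower in WA, 1 and 10 in WB, and 4 and 8 in WC. Mitochondrial calls were 1 higher and 1 lower in WA, 0 and 4 in WB, and 1 and 1 in WC. Of all genes, 27.3% were called in WA (13.2% higher, 14.1% lower), 25.5% in WB (12% and 13.5%) and 28.9% in WC (13.8% and 15.1%). The lower direction thus held for cytosolic members in all 3 lines, although with centring WC had 3 higher and 3 lower. Centring moved the median of all genes in WA from 0.03 to -0.11, and the cytosolic median there from -0.24 to -0.39. The F test for v-src called 4 members, against 13.5% of all genes: 3 cytosolic and 1 mitochondrial. Kars had 0.08 (WA), -0.05 (WB) and 0.35 (WC) (adjusted p = 0.01, limma), Rars had 0.34 (WA), -0.11 (WB) and 0.20 (WC) (0.011) and Farsb had 0.11 (WA), 0.18 (WB) and 0.56 (WC) (0.0283). Tars2, the mitochondrial threonyl enzyme, had signals of 423 to 737 (median 663) under the empty vector, 721 to 945 (median 787) with c-myc and 476 to 730.3 (median 649) with v-src and differences of 0.36 (WA), -0.54 (WB) and 0.17 (WC) (0.00878). The Kars and Farsb differences were highest in WC and that of Rars in WA, and Tars2 was below the empty vector in WB only. With centring 0 cytosolic and 2 mitochondrial members were called, and 8 members without the arrays WC c-myc 1 and WA empty 3.

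With the empty vector, cytosolic synthetase signals were lower in WC than in the other lines. WC was below WA in 14 of 19 cytosolic members and above it in none (14.7% and 15.1% of all genes, 29.8% in all). WC was below WB in 12 and above it in none (16.5% and 16%, 32.5% in all). The median WC minus WA difference was -0.30 with the empty vector, 0.00 with c-myc and -0.16 with v-src. The empty vector arrays compared here also enter the oncogene differences of each line, so these results are not independent. With arrays centred, 15 of 19 were lower in WC than in WA, at a median of -0.49, while the median of all genes moved from 0.04 to -0.14. Rars (-0.73), Eprs (-0.71) and Farsb (-0.70) had the largest WC minus WA differences. Between WB and WA, 2 cytosolic members were higher and 4 lower in WB (13.4% and 12.7%, 26.1% in all). An F test over the 3 lines with the empty vector called 17 cytosolic and 3 mitochondrial members, against 44.9% of all genes. Of the 16 mitochondrial members, 3 were higher in WB than in WA, 1 was higher in WC than in WA (Rars2) and 1 was lower in WC than in WB (Yars2). In the same contrast, 14 of 32 other ATF4 target genes were lower in WC than in WA and 3 higher. Against WB, 17 were lower and 2 higher. Other lists described below were lower in WC than in WA too. Of 34 genes of tRNA transcription, processing and export 16 were lower and 1 higher, and of 46 tRNA modification genes 16 and 5. The WC minus WA median was -0.26 in each of these lists and in the ATF4 targets. It was -0.14 for elongation factors, -0.08 for mitochondrial ribosomal proteins and -0.03 for synthetase partners.

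Cytosolic members not yet given with their signals were Hars (1438510_a_at, 2109.9 to 3522), Sars (1426257_a_at, 4647 to 8542) and Wars (1434813_x_at, 1318 to 2608), the histidyl, seryl and tryptophanyl enzymes. With c-myc, Sars differed by -0.26, Wars by -0.12 and Hars by 0.08, none of which passed the test. Sars passed, at 0.0435, without empty vector WC 3. Other c-myc values that did not pass were -0.31 for Nars, -0.31 for Cars, -0.13 for Gars, -0.11 for Lars, -0.01 for Mars1, 0.03 for Iars, 0.04 for Eprs and 0.09 for Rars. Wars is measured by probes that also match other transcripts.

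Of the 35 members, 23 had further single-gene probe sets, 37 in all, of which 24 passed the filter. Among those 24, the sign matched that of the probe set used in 21 for c-myc, 18 for v-src and 20 for v-src against c-myc. Probe sets of Aars (-0.56 and -0.55 with c-myc), Nars (-0.31 and -0.36), Iars (0.03 and 0.00), Sars (-0.26 and -0.40) and Hars (0.08 and 0.25) gave these c-myc values. With v-src these gave -0.38 and -0.36 for Aars, -0.37 and -0.40 for Nars, -0.35 and -0.38 for Iars, -0.14 and -0.22 for Sars and -0.21 and -0.08 for Hars. Other genes had 4 probe sets. Farsa gave 0.56, 0.52, 0.31 and 0.23 with c-myc and -0.05, 0.36, 0.31 and 0.35 with v-src, Farsb 0.22, 0.32, 0.16 and 0.29 and 0.28, 0.51, 0.36 and 0.67. Qars gave 0.29, 0.29, 0.43 and 0.14 and 0.35, 0.20, 0.36 and 0.19, Wars -0.12, -0.13, 0.12 and -0.17 and -0.28, -0.12, 0.01 and -0.21, and Eprs 0.04, -0.13, -0.16 and 0.06 with c-myc. Of these, the second and the third Farsa, the fourth Farsb, the second Qars and the third Eprs values come from probe sets that did not pass the filter. With the mean of a gene's probe sets, the calls of v-src against c-myc ended for Farsa (adjusted p = 0.143, limma) and Cars2 (0.11), as did the Qars call with v-src (0.0537). The 3 probe sets of Cars2 gave -0.47, -0.46 and 0.03 for v-src against c-myc.

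Mitochondrial genes with several probe sets gave, for c-myc, 0.93 and 0.80 for Yars2, 0.58 and 0.66 for Vars2, 0.42 and 0.34 for Tars2 and 0.25 and 0.27 for Wars2. They gave 0.27, 0.28 and 0.38 for Cars2, 0.21, 0.64, 0.18 and 0.23 for Ears2, 0.43, 0.25 and 0.15 for Lars2 and 0.11 and 0.17 for Hars2. The 2-probe-set genes Mars2, Nars2, Iars2 and Fars2 gave 0.32 and 0.09, 0.41 and 0.54, 0.34 and 0.06 and 0.03 and 0.15. All 28 probe sets of these 12 genes were above 0 with c-myc, but 7 of them, in Ears2, Lars2, Mars2, Nars2 and Fars2, did not pass the filter, and of the 21 that did, 12 are the ones used. For v-src they were mixed: -0.20, -0.18 and 0.40 for Cars2, -0.14 and 0.49 for Nars2, -0.19 and 0.16 for Fars2, 0.24 and -0.15 for Iars2, 0.04 and -0.07 for Vars2 and -0.05, 0.26, -0.23 and 0.04 for Ears2. With v-src the signs agreed in Yars2 (-0.07 and -0.13), Lars2 (-0.25, -0.36 and -0.24), Hars2 (-0.31 and -0.20), Mars2 (-0.30 and -0.14), Tars2 (-0.003 and -0.02) and Wars2 (0.12 and 0.04). The second Cars probe set, which did not pass the filter, gave -0.39 with c-myc and -0.34 with v-src.

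Genes that work beside the synthetases were called higher with c-myc in 5 related lists, and none of their genes was called lower. Of 14 partners (complex scaffolds, editing factors and amidotransferase subunits), 6 rose and 0 fell, at a median of 0.53, where 10.0% of all genes were called higher and 9.76% lower. They include Dtd1, which removes D-amino acids from tRNA (1.38, adjusted p = 0.00841, limma), Lrrc47 (0.61, adjusted p = 0.00999) and Aarsd1, an editing factor (0.57, adjusted p = 0.0159). Of 9 elongation factors 3 rose and 0 fell: the mitochondrial factors Tufm (0.76, adjusted p = 0.00891) and Gfm1 (0.60, adjusted p = 0.00844), and Eef1d (0.33, adjusted p = 0.0475). Of 34 genes of tRNA transcription, processing and export, 11 rose and 0 fell. Leading these were Elac2, which trims tRNA 3′ ends (0.84, adjusted p = 0.00403), the RNA polymerase III subunit Polr3e (0.88, adjusted p = 0.0129) and Ssb (0.47, adjusted p = 0.0148). Of 46 tRNA modification genes 16 rose and 0 fell, with Nsun2 (0.68, adjusted p = 0.00458), Pus10 (0.77, adjusted p = 0.00555) and Dus1l (0.83, adjusted p = 0.00759) lowest in p. Of 76 mitochondrial ribosomal protein genes 33 rose and 0 fell, with a median of 0.35, close to the 0.33 of the mitochondrial synthetases. Mrpl42 (0.82, adjusted p = 0.00284), Mrps5 (0.94, adjusted p = 0.00366) and Mrpl1 (0.84, adjusted p = 0.00435) led that list. The medians of the processing and modification lists were 0.39 and 0.38. In each of these 5 lists, no gene was lower at an unadjusted p under 0.05 (limma).

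The other ATF4 targets went the opposite way: of 32 genes, 0 rose and 10 fell with c-myc (9.76% of all genes), at a median of -0.36, and none was higher at an unadjusted p under 0.05. Trib3, a pseudokinase made under stress (-2.14, adjusted p = 0.00227, limma), Vldlr (-2.10, adjusted p = 0.00363) and Chac1, which degrades glutathione (-1.72, adjusted p = 0.00401), had the lowest p. By line their median was -0.52 (WA), -0.64 (WB) and 0.01 (WC). The cytosolic synthetases had the same order of lines, with -0.28 in WB, -0.11 in WA and then 0.24 in WC. This order was not particular to ATF4 targets, as lists that rose had it too. In WB, WA and WC, tRNA modification genes had 0.25, 0.36 and 0.52, and mitochondrial ribosomal proteins 0.19, 0.37 and 0.48. The tRNA transcription and processing genes (0.28, 0.29 and 0.49) and elongation factors (0.21, 0.24 and 0.53) had it as well. Partners had WA lowest (0.33, 0.30 and 0.54). With v-src 1 of the 32 rose and 9 fell (6.64% and 6.79% of all genes), at a median of -0.36, and the lowest p were those of the amino acid transporters Slc7a5 (-1.52, adjusted p = 0.00196), Slc1a4 (-0.85, adjusted p = 0.00479) and Slc7a1 (-0.76, adjusted p = 0.00505).

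With v-src the other 5 lists had medians near 0. Partners had 0 calls and a median of 0.005 (2 higher at an unadjusted p under 0.05, limma), with Aarsd1 at 0.30, adjusted p = 0.134, Gatb at 0.37, adjusted p = 0.165 and Eef1e1 at 0.26, adjusted p = 0.339. Among elongation factors Eif5a fell (-0.24, adjusted p = 0.0218), and Eef2 (-0.18, adjusted p = 0.0601) and Eef1a1 (-0.16, adjusted p = 0.107) did not pass. In tRNA transcription and processing, Brf1 (-0.55, adjusted p = 0.0335) and Polr3b (-0.49, adjusted p = 0.0419), both of the RNA polymerase III machinery, fell, and Xpot was at -0.28, adjusted p = 0.0573. Among modification genes Gtpbp3 rose (0.57, adjusted p = 0.0451) and Mettl1 (-0.49, adjusted p = 0.0482) and Trdmt1 (-0.49, adjusted p = 0.0489) fell. Of the mitochondrial ribosomal proteins 5 rose and 1 fell, against 6.64% and 6.79% of all genes, led by Mrps18a (0.61, adjusted p = 0.00719), Mrpl45 (0.61, adjusted p = 0.0175) and Mrpl28 (0.33, adjusted p = 0.029).

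Between v-src and c-myc cells, 7 of 14 partners, 6 of 9 elongation factors, 16 of 34 tRNA processing genes, 20 of 46 modification genes and 33 of 76 mitochondrial ribosomal proteins were lower, and 1 gene of these lists, a mitochondrial ribosomal protein, was higher. Of all genes, 13.7% were lower and 11.9% higher. Lowest in p were Gatc (-0.70, adjusted p = 0.00824, limma), Dtd1 (-1.04, adjusted p = 0.0155) and Lrrc47 (-0.47, adjusted p = 0.0184) among partners and Eif5a (-0.40, adjusted p = 0.00201), Eef2 (-0.24, adjusted p = 0.0138) and Gfm1 (-0.46, adjusted p = 0.0148) among elongation factors. In the tRNA lists these were Elac2 (-0.79, adjusted p = 0.0022), Polr3b (-0.74, adjusted p = 0.00596) and Pop5 (-0.94, adjusted p = 0.00612), and Nsun2 (-0.75, adjusted p = 0.00168), Dus3l (-0.90, adjusted p = 0.00249) and Pus10 (-0.79, adjusted p = 0.003). For mitochondrial ribosomal proteins they were Mrpl42 (-0.82, adjusted p = 0.00113), Mrpl16 (-0.90, adjusted p = 0.00198) and Mrps5 (-0.83, adjusted p = 0.00235). ATF4 targets were split, 8 higher and 6 lower, with Vldlr (2.13, adjusted p = 0.00145), Slc7a1 (-0.91, adjusted p = 0.00155) and Cebpb (1.47, adjusted p = 0.00198) first.

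**Figure D5:**
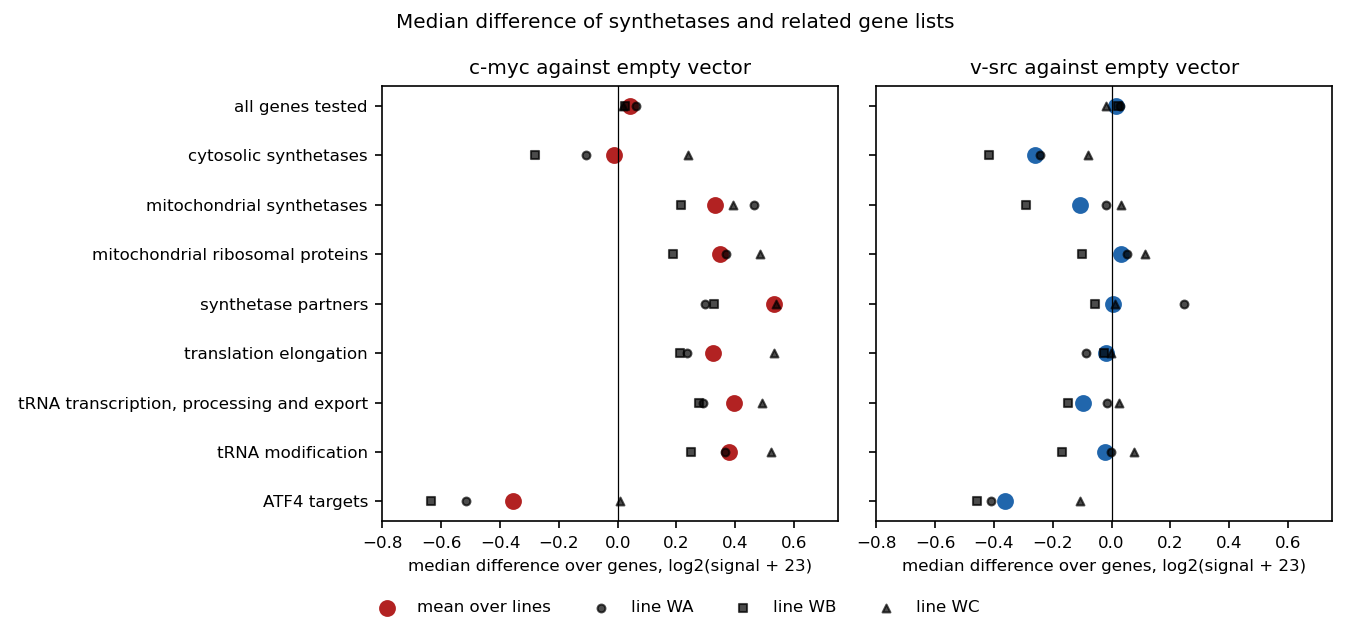
Median difference from the empty vector of each gene list, on the log2(signal + 23) scale, for the mean of 3 lines (large circle) and for each line (small symbols), with c-myc on the left and v-src on the right. With c-myc the mitochondrial synthetases (0.33) lie beside the mitochondrial ribosomal proteins (0.35). The cytosolic synthetases and the ATF4 targets both have WB lowest and WC highest. So do both tRNA lists, the elongation factors and the mitochondrial ribosomal proteins.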

How the data were processed

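The authors deposited linear intensity values for 45101 probe sets on 26 arrays, for which the submitters' processing notes name MAS5 with no version. After trimming 2% at each end, all arrays had a mean of 500, which is a linear scaling of whole arrays. Names came from the annotation of the platform: 34945 had 1 gene symbol, 932 several, 9211 were not listed and 64 were controls. Of the single-gene probe sets, 34741 gene IDs were found in the RefSeq table of GRCm38.p6, and 0 symbols changed. All columns were mapped to labelled samples, with 0 left over, and 0 arrays held identical values. The number of arrays limits the precision.

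Analysis ran on log2(value + 23), 23 being the 20th percentile of the values. Genes were tested where the mean was above the 40th percentile (6.52), and the probe set with the highest mean stood for a gene. The test was limma (3.58.1, under R 4.3.3), its prior variance following the mean intensity; p-values were adjusted by Benjamini-Hochberg over 13018 genes, and 0.05 was the threshold. Comparisons over the lines used the 9 group averages in an additive model of vector and line (n = 3 lines; degrees of freedom 4 residual, 3.9 prior). Comparisons within lines and between them used 26 arrays and a mean per group (degrees of freedom 17 residual, 6.2 prior).

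Members named in full were those called over the lines or by the F test, with values per array for the 4 largest called in each comparison and, for other lists, the 3 genes with the lowest p. The members and lists were chosen with earlier results of these data known. The fit was tested on simulated data with known changes. In all, 40 other settings were tried. Promoter sequences were RefSeq's.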

Additional observations from a re-analysis of the deposited data

Results flagged for a closer look

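The F test was that of limma (n = 2 or 3 arrays a group), adjusted over all genes tested. By it, the c-myc effect differed between the 3 lines in 12 of the 35 synthetase genes, against 16.2% of all genes. In the order of evidence these were Mars1 (adjusted p = 0.000375), Lars (0.000889), Farsb (0.00148), Rars (0.00161), Eprs (0.00172), Tars (0.0021), Yars (0.00978), Nars (0.0123), Iars2 (0.0202), Iars (0.025), Cars (0.0339) and Gars (0.0498). In 11 of these WC had the highest difference, and in Iars2 it was WA. With arrays centred on their medians 4 members were called, 3 cytosolic and 1 mitochondrial. The v-src effect differed between lines in 4 of the 35 genes, against 13.5% of all genes. They were Tars2 (adjusted p = 0.00878, limma), Kars (0.01), Rars (0.011) and Farsb (0.0283). WB had the lowest difference in Kars, Rars and Tars2, and WA had it in Farsb. With centred arrays 0 cytosolic members were called for v-src, so the calls of Kars, Rars and Farsb ended, and 2 mitochondrial members were called.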

How the results depend on the processing

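Counts of called members over the 3 lines depended on how lines entered the fit. Without line WA, WB or WC, cytosolic calls with c-myc (5) became 0, 2 and 1, mitochondrial ones (2) 1, 1 and 0, and cytosolic calls with v-src (7) 0, 0 and 2. Cytosolic calls of v-src against c-myc (7) became 2 without WA or WC, and mitochondrial ones (8) 1, 3 and 1. With all arrays as separate values the counts were 11 and 11 for c-myc (cytosolic, mitochondrial), 14 and 4 for v-src, and 13 cytosolic for v-src against c-myc (3 higher, 10 lower). With the group of an array as a random block they were 10 and 6, 11 and 1, and 12 (2 higher, 10 lower). With the replicate block they were 11 and 9, 13 and 2, and 13 (3 higher, 10 lower). Same-numbered arrays of a line showed little shared deviation: 25 pairs correlated at -0.139 to 0.212, and 5 were over 0.1. Those 5 were mostly in WC, where values ran from -0.073 to 0.212. The numbers were not treated as pairs in the main fit. The all-array, random block and replicate block settings count arrays, not lines, in the spread, or as correlated values. Shares of all genes called in these fits, and in those without a line, are not given here. The changed counts are thus not results about the members.

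Mitochondrial c-myc calls were 1 with quantile normalization, with centred arrays and with no filter on low values. Cytosolic v-src calls were 4 with quantile normalization, 2 with no intensity trend and 4 without WC c-myc replicate 1 and WA empty replicate 3, a setting chosen after seeing the data. Mitochondrial v-src calls, 0 as reported, were 1 with quantile normalization, centred arrays or the mean of a gene's probe sets. For v-src against c-myc, cytosolic calls were 4 with no intensity trend, mitochondrial calls 5 with no filter, and the cytosolic median of -0.26 was -0.16 without WC. Centring lowered the members called within WA with c-myc from 20 to 13, within WC from 20 to 11 with c-myc and from 14 to 8 with v-src, and the F tests from 12 to 4 (c-myc) and 4 to 2 (v-src); the latter gave 8 without the 2 arrays named. The causes were not tested.

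Leaving out 1 array gave, for cytosolic and mitochondrial calls, 5 to 6 and 1 to 3 (c-myc), 5 to 7 and 0 to 1 (v-src), and 5 to 7 and 4 to 8 (v-src against c-myc). Within lines, counts were 15 to 21 and 12 to 16 in WA (c-myc, v-src), 12 to 15 and 11 to 16 in WB, and 14 to 21 and 11 to 15 in WC. The F tests gave 9 to 15 (c-myc), 3 to 6 (v-src) and 17 to 22 (empty vector). Of 4200 values of single members under other settings, 3843 kept their side of the threshold, 190 lost and 115 gained a call, 52 moved with no call, and 0 reversed a call.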
